A study of Homo sapiens with 12 samples.

Results

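Histone-modifying enzymes write and erase the chemical marks on histone tails. The genes described here are 50 such genes, chosen by name, of 63152 gene identifiers in the count table: 9 acetyltransferases, 10 deacetylases, 20 methyltransferases and 11 demethylases. EED and SUZ12, which are non-catalytic core subunits of the Polycomb complex PRC2, are counted with the methyltransferases. KMT2E is counted there by its name. Each of the 50 symbols matched 1 identifier. Of these, 49 were among the 13180 genes that passed the expression filter. The exception was KDM5B, a demethylase of lysine 4 of histone H3, with 0 to 5 reads per library.

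Transcripts were counted by QuantSeq, which sequences the 3′ ends of polyadenylated RNA, in OPM2, an established human multiple myeloma cell line. Cells were exposed for 2 h to DMSO vehicle, to 250 nM JQ1, to 1 µM BKM120 or to 250 nM 18DS, with 3 libraries in each of the 4 groups, which the labels call biological triplicates of this 1 line. JQ1 blocks the acetyl-lysine pockets of BET bromodomain proteins, BKM120, also called buparlisib, blocks PI3K, a lipid kinase of growth signalling, and 18DS is named by the submitters as a single molecule built to inhibit both targets. The comparison of each compound with vehicle asks which transcripts had moved at this early time, and that of 18DS with JQ1, at the same dose, asks where the chimeric molecule differed from a BET inhibitor.

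Acetyltransferases add, and deacetylases remove, the acetyl groups that BET proteins bind, so the genes stand on both sides of the mark that JQ1 hides from its readers. Methyltransferases and demethylases set methyl marks whose meaning depends on the site. KMT2A to KMT2D and the SETD1 enzymes mark promoters and enhancers, and NSD and SETD2 enzymes mark gene bodies. PRC2 represses, and SUV39H1 and SETDB1 build heterochromatin. In myelomas with the t(4;14) translocation, OPM2 among them, NSD2 is placed under immunoglobulin heavy chain enhancers, which makes it the best known member of the set in this disease.

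Total counts per library ran from 5501895 to 7692013, and the 50 genes took 0.217% to 0.239% of them. Values are CPM, counts scaled to a common library size with TMM factors, so each is relative to the rest of a library's mRNA, and fewer cells, or less RNA per cell, cannot be told apart from them. All 10 plasma cell and myeloma markers passed the filter, among them FGFR3, the other gene of the translocation, at 509 to 890 CPM (the range over libraries). Marker sums were scaled to library totals alone, without TMM factors. These 10 markers summed to 5868 to 5933 CPM in DMSO and 5055 to 5334 with JQ1. With BKM120 the sum was 5685 to 5804, and with 18DS 4629 to 5120. On that scale every library of the 3 compounds lay below every DMSO library. With TMM factors (1.033 in DMSO replicate 1, 0.987 to 1.008 with BKM120) the BKM120 libraries would not all lie below DMSO. The part of this sum in the results was not tested. Marker sums of T and NK, myeloid, and epithelial and fibroblast cells reached at most 5.76 CPM, with CD3D, NKG7 and COL3A1 at 0. The library 18DS replicate 2 stood apart on the third principal component (score 26.7, against -13.7 and -9.33 for the other 18DS libraries), and calls and list counts that were lost without it are named beside the results. MYC was lower with JQ1 (log2 fold change -3.53) and 18DS (-3.51), and higher with BKM120 (0.81, SE 0.13, edgeR adjusted p = 5.01e-05). HEXIM1, which BET inhibitors are known to raise, was higher with JQ1 (1.66) and 18DS (1.95). KLF2, which PI3K pathway inhibition is known to raise, was higher with BKM120 (2.80) and 18DS (1.64).

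The 6 genes that were called with JQ1 against DMSO carry much of what follows, and their promoter sequences are shown for that reason. Each line gives the 150 bases before a RefSeq transcription start, 5′ to 3′ on the plus strand of GRCh38.p14, for the first listed start of the gene. The windows are chr11:65712102-65712251 (KAT5), chr10:67884506-67884655 (SIRT1), chr7:105014055-105014204 (KMT2E), chr4:1871243-1871392 (NSD2), chrX:48695404-48695553 (SUV39H1) and chr1:150926113-150926262 (SETDB1). Capitals mark 4 motifs, searched on both strands: the E-box CACGTG, the site of MYC and its partners, the CCAAT box (CCAAT or ATTGG), the GC box (GGGCGG or CCGCCC) and the TATA box (TATAAA or TTTATA).
KAT5: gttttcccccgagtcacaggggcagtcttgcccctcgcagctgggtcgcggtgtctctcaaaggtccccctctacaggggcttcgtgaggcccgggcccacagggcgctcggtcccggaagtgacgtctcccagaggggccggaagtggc
SIRT1: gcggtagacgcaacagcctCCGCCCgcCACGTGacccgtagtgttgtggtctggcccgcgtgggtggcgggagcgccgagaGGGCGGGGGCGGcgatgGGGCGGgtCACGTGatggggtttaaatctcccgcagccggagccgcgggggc
KMT2E: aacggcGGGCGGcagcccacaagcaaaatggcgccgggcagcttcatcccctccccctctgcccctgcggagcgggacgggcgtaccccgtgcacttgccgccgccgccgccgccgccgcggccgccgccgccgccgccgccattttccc
NSD2: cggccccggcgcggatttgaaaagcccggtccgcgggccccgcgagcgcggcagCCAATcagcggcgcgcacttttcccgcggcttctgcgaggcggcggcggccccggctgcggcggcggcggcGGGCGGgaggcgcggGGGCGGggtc
SUV39H1: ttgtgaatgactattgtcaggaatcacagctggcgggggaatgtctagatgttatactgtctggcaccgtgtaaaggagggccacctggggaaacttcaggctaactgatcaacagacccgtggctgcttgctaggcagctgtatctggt
SETDB1: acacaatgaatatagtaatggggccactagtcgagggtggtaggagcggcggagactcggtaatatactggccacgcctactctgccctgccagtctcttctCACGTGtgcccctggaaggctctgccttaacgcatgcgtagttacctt

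The SIRT1 window held 2 E-boxes and 4 GC boxes, and the SETDB1 window 1 E-box. NSD2 had 1 CCAAT box and 2 GC boxes, KMT2E had 1 GC box, and the printed KAT5 and SUV39H1 windows held none of the 4 motifs. Of all 35116 windows of this length, 4.57% held an E-box, 23.52% a CCAAT box, 36.79% a GC box and 6.71% a TATA box. Of the 70 windows listed for 44 of the 50 genes, 8 held an E-box, 18 a CCAAT box, 44 a GC box and 0 a TATA box. These are matches of letters in a fixed window. The 3′ reads do not show which start a gene uses, and SUV39H1 and SETDB1 each have more than 1 listed start. The windows are those of the reference genome, and the translocated NSD2 locus of OPM2 was not examined. The second SUV39H1 window, chrX:48696584-48696733, held 1 CCAAT box and 1 GC box. The bases after this start, and after those of SIRT1 and NSD2, opened no GENCODE v29 transcript of their gene.

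In vehicle, group means ran from 0.431 CPM for KDM5B to 637 CPM for NSD2, with HDAC7 at 184 CPM and every other gene of the set below 184 CPM. Reads at 3′ ends were not divided by transcript length, and the genes are not ranked by these levels. Of the 49 tested genes, 35 passed the test in none of the 4 comparisons, 6 in 1, 7 in 2 and 1 in 3. The matching counts over all tested genes were not computed, and their share called in each comparison is given below. A gene that did not pass is not thereby shown to have stayed at its vehicle level. The median log2 fold change over the 49 genes was -0.01 with JQ1, 0.08 with BKM120 and -0.02 with 18DS, and that over all tested genes was 0.0030, 0.00014 and -0.0033. With upper-quartile factors in place of TMM the median of the set was above 0 with JQ1 and 18DS (0.02 and 0.03), and with library totals it was further below 0 (-0.04 and -0.09), so no direction is read from it.

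**Figure D1:**
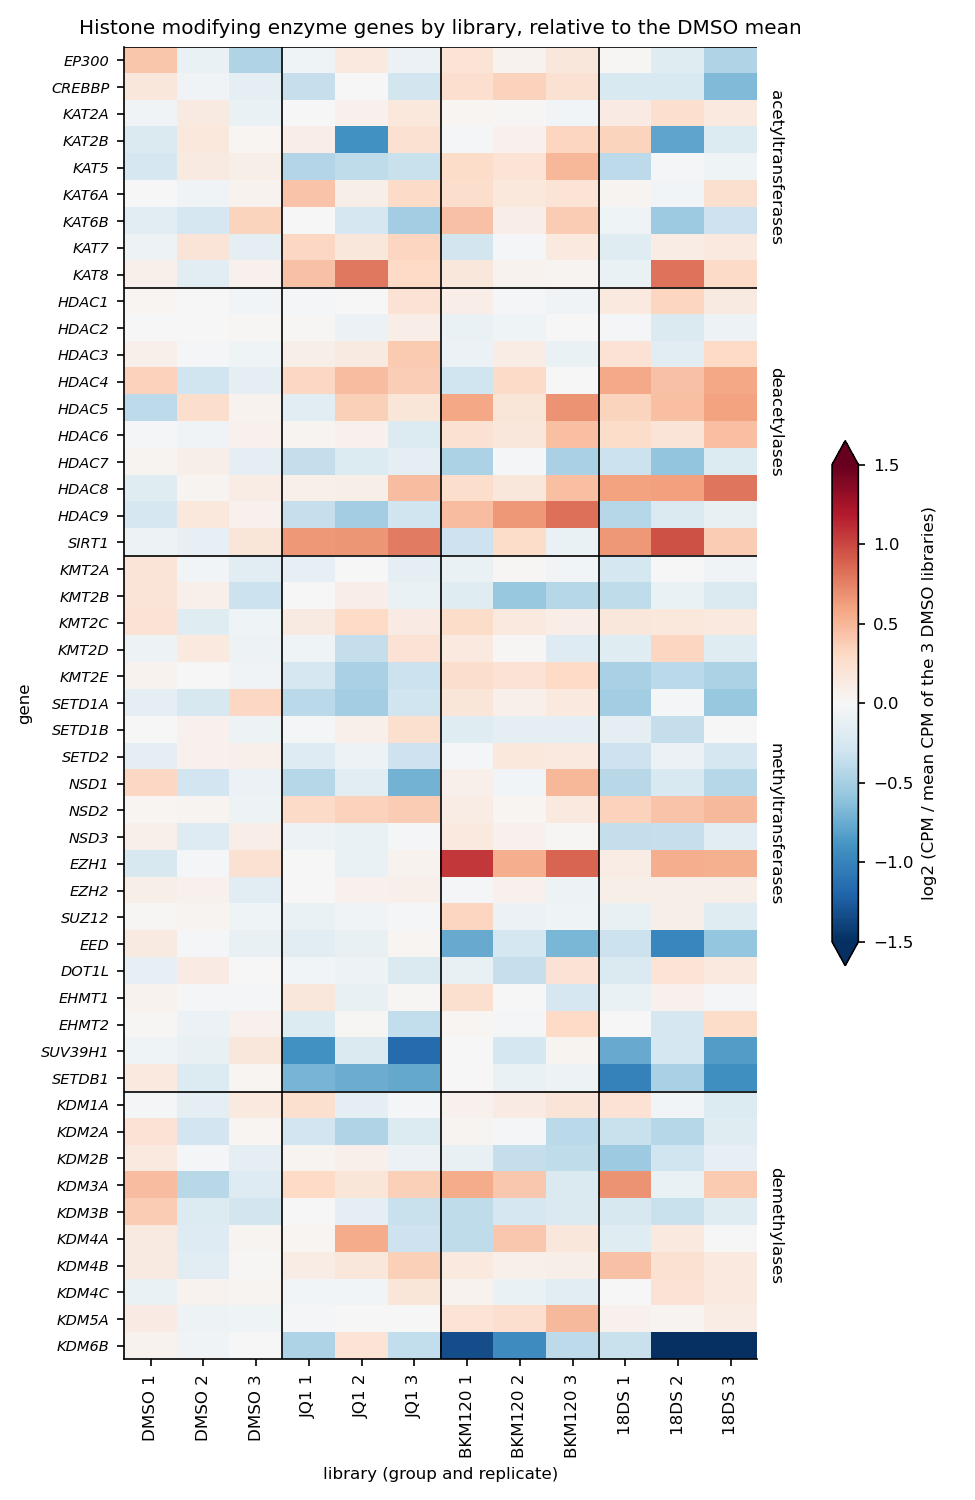
Colour gives the log2 ratio of each library's CPM to the DMSO mean for the 49 tested genes (rows, by class) in the 12 libraries (columns, by group). Most rows stay pale, with bands in EZH1 (BKM120), EED (BKM120 and 18DS), SETDB1, SUV39H1 and SIRT1 (JQ1 and 18DS), and 2 cells of KDM6B lie beyond the colour scale, the lower at -1.69.

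A gene was called where its Benjamini-Hochberg adjusted p, over all 13180 genes in edgeR's quasi-likelihood test, was under 0.05. With JQ1, 6 of 49 genes were called (2 higher, 4 lower), which is 12.2% of the set, against 6.08% of all tested genes (2.63% higher and 3.45% lower). With BKM120 the count was 5 of 49 (4 higher, 1 lower), against 8.21% (4.07% higher and 4.14% lower). With 18DS it was 10 of 49 (3 higher, 7 lower), which is 20.4% of the set, against 21.0% (9.95% higher and 11.0% lower), so the share for 18DS lay at that of all genes. Leaving out 1 library at a time gave 2 to 4 calls with JQ1, 1 to 7 with BKM120 and 8 to 9 with 18DS. Over all genes these fits gave 504 to 609, 487 to 1413 and 1909 to 3026 calls. The counts of the set that moved by over 1.5 times were those of JQ1 without DMSO replicate 2 (3) or JQ1 replicate 3 (2), and of BKM120 without BKM120 replicate 1 (3) or 3 (1), or DMSO replicate 1 (2) or 3 (3). The split into higher and lower depended on scaling: with 18DS it was 6 higher and 4 lower under upper-quartile factors, and with BKM120 2 higher and 1 lower under library totals. Over all genes, 18DS gave 1312 higher and 1456 lower by TMM, 898 and 2025 by library totals and 1675 and 1213 by upper-quartile factors, and BKM120 gave 536 and 546, 439 and 815, and 734 and 431. Because the 3 comparisons share the DMSO libraries, their values are set side by side and no agreement between them is read. By the 95% intervals, a change of 1.5-fold in either direction was outside the interval for 35 genes with JQ1, 38 with BKM120 and 28 with 18DS. Over all 13180 genes the counts were 7088, 6789 and 5959. The median standard error was 0.133 to 0.135 in the set and 0.169 to 0.170 over all genes, so the counts are not read as stability of the set.

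**Figure D2:**
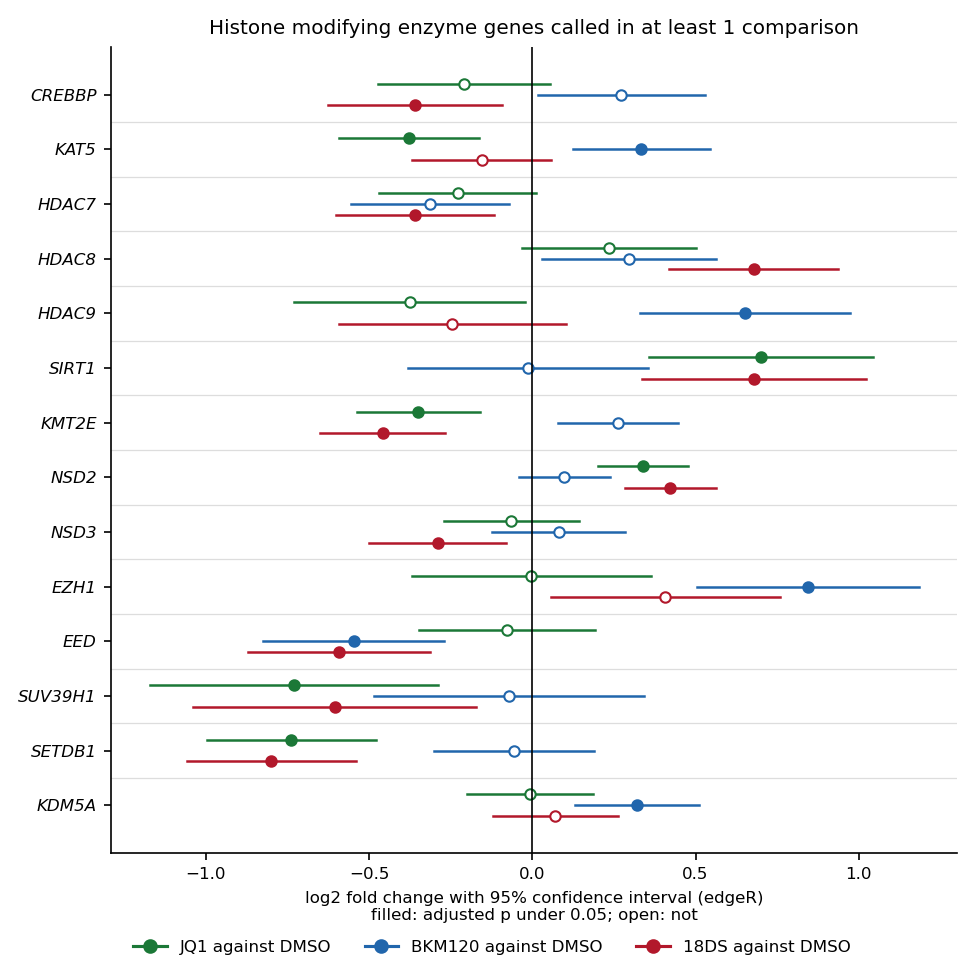
Points give the edgeR log2 fold change against DMSO, with its 95% confidence interval, of the 14 genes called in at least 1 comparison, for JQ1, BKM120 and 18DS (filled where the adjusted p was under 0.05). SETDB1 lies lowest with JQ1 (-0.74) and 18DS (-0.80), and EZH1 highest with BKM120 (0.84).

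Among the acetyltransferases, 1 of 9 fell with JQ1 (KAT5), 1 rose with BKM120 (KAT5) and 1 fell with 18DS (CREBBP), against 3.45% lower, 4.07% higher and 11.0% lower over all genes, with class medians of -0.01, 0.13 and -0.12 on the log2 scale. The sign of a class median was the same under TMM, library totals and upper-quartile factors for acetyltransferases with BKM120 and 18DS, for deacetylases with JQ1 and 18DS and for methyltransferases with each compound, and it changed with the scaling in the other cases. KAT5 (TIP60) is the catalytic subunit of the NuA4 complex and acetylates histones H4 and H2A. Its CPM was 73.7, 96.7 and 93.2 in DMSO, 65.0, 67.6 and 69.8 with JQ1, 107, 101 and 124 with BKM120 and 66.9, 85.9 and 84.1 with 18DS. Every JQ1 library lay below, and every BKM120 library above, the DMSO libraries, while those of 18DS overlapped them. KAT5 was 1.30-fold lower with JQ1 (log2 fold change -0.38, SE 0.11, edgeR adjusted p = 0.0252) and 1.26-fold higher with BKM120 (log2 fold change 0.33, SE 0.10, edgeR adjusted p = 0.0393), and with 18DS its log2 fold change was -0.16 (edgeR adjusted p = 0.311). Neither call was firm. The JQ1 call held in 1 of 6 fits that left out a library, that without DMSO replicate 1, and the other 5 gave adjusted p of 0.0675 to 0.177. The BKM120 call was lost without DMSO replicate 1 (0.260) or 3 (0.0514) and without BKM120 replicate 1 (0.0910) or 3 (0.242). KAT5 also shares 1439 exon bases in GENCODE v29 with RNASEH2C on the opposite strand, and whether the counting used strand is not known. RNASEH2C held 10949 reads in all against 6505 for KAT5, and its log2 fold changes were -0.19 with JQ1 (edgeR adjusted p = 0.248), 0.24 with BKM120 (0.0734) and 0.02 with 18DS (0.896), so the split of reads between them is uncertain.

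CREBBP and EP300 are the paired coactivator acetyltransferases that mark active enhancers. CREBBP read 31.7, 27.0 and 25.6 CPM in DMSO, 22.1, 27.9 and 23.2 with JQ1, 33.4, 35.8 and 32.8 with BKM120 and 24.0, 24.0 and 17.8 with 18DS. The 18DS libraries all lay below DMSO, and the BKM120 libraries all above. CREBBP fell 1.28-fold with 18DS (log2 fold change -0.36, SE 0.13, edgeR adjusted p = 0.0478), at the edge of the threshold: the call was lost without DMSO replicate 1 (0.274) or 2 (0.0691) or 18DS replicate 3 (0.285), and with 6 of 8 other settings, where its log2 fold change ranged over all 8 from -0.43 to -0.31. With BKM120 its log2 fold change was 0.27 (95% interval 0.02 to 0.53, edgeR adjusted p = 0.179). EP300 averaged 22.7 ± 6.94 CPM (mean ± SD, n = 3) in DMSO, 22.7 ± 2.13 with JQ1, 25.0 ± 1.35 with BKM120 and 19.8 ± 3.19 with 18DS, and the DMSO libraries alone spanned 16.6 to 30.2. None of its comparisons passed the test, the largest being 18DS against DMSO at -0.20 (95% interval -0.53 to 0.13, edgeR adjusted p = 0.415). The remaining 6 acetyltransferases, KAT2A, KAT2B, KAT6A, KAT6B, KAT7 and KAT8, were called in no comparison. DESeq2's Wald test called KAT5 with JQ1 and 0 of the 9 with BKM120 or 18DS. Over all genes it called 621 with JQ1, 933 with BKM120 and 2239 with 18DS.

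The deacetylases gave 1 call of 10 with JQ1 (SIRT1 higher), 1 with BKM120 (HDAC9 higher) and 3 with 18DS (HDAC8 and SIRT1 higher, HDAC7 lower), against 6.08%, 8.21% and 21.0% of all genes, with class medians of 0.11, 0.01 and 0.26. SIRT1 is a NAD-dependent deacetylase of histones and of p53. It stood at 10.6, 10.3 and 12.6 CPM in DMSO, 17.5, 17.6 and 19.1 with JQ1, 8.99, 13.5 and 10.4 with BKM120 and 17.6, 21.7 and 14.5 with 18DS. All 6 libraries with a BET inhibitor lay above all 3 DMSO libraries, and BKM120 overlapped vehicle. SIRT1 rose 1.63-fold with JQ1 (log2 fold change 0.70, SE 0.17, edgeR adjusted p = 0.00711) and 1.60-fold with 18DS (log2 fold change 0.68, SE 0.17, edgeR adjusted p = 0.00342), and its direct difference, 18DS over JQ1, was -0.02 (95% interval -0.34 to 0.30, edgeR adjusted p = 0.963). The call with 18DS held in all 6 fits that left out a library, and that with JQ1 in 5, missing the threshold without JQ1 replicate 3 (0.0526). With BKM120 the log2 fold change was -0.01 (95% interval -0.38 to 0.35, edgeR adjusted p = 0.979). The 2 E-boxes of its printed window are a description of the sequence only.

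HDAC8 is a class I, zinc-dependent deacetylase whose known substrates include the cohesin subunit SMC3. Its CPM was 19.5, 22.8 and 23.9 in DMSO, 23.3, 23.4 and 30.5 with JQ1, 26.5, 24.9 and 30.1 with BKM120 and 33.4, 33.8 and 38.6 with 18DS. The 18DS libraries lay above all 9 others. HDAC8 rose 1.60-fold with 18DS (log2 fold change 0.68, SE 0.13, edgeR adjusted p = 0.00016), a call that held in all 6 fits that left out a library, while its log2 fold changes were 0.24 (95% interval -0.03 to 0.50, edgeR adjusted p = 0.358) with JQ1 and 0.30 (95% interval 0.03 to 0.56, edgeR adjusted p = 0.158) with BKM120.

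HDAC9 and HDAC7 are class IIa deacetylases, which act mostly as scaffolds for corepressors. HDAC9 had 10.3, 13.6 and 12.8 CPM in DMSO, 9.60, 8.52 and 9.94 with JQ1, 16.9, 19.1 and 21.7 with BKM120 and 9.13, 10.5 and 11.3 with 18DS. BKM120 lay wholly above vehicle and JQ1 wholly below. The rise with BKM120 was 1.57-fold (log2 fold change 0.65, SE 0.16, edgeR adjusted p = 0.00755), and it was lost without DMSO replicate 1 (0.0819) or BKM120 replicate 3 (0.0713). With JQ1 the log2 fold change was -0.38 (95% interval -0.73 to -0.02, edgeR adjusted p = 0.242). HDAC7 measured 189.7, 195 and 167 CPM in DMSO, 144, 159 and 167 with JQ1, 132, 179 and 131 with BKM120 and 147, 122 and 159.6 with 18DS. HDAC7 fell 1.28-fold with 18DS (log2 fold change -0.36, SE 0.12, edgeR adjusted p = 0.0325), and the call was lost without DMSO replicate 1 (0.143) or 2 (0.106) and without 18DS replicate 1 (0.0681) or 2 (0.131). Within BKM120 and within 18DS, the lowest HDAC7 value fell in the library with the largest share of mitochondrial reads: 131 CPM at 7.65% in BKM120 replicate 3 and 122 CPM at 7.60% in 18DS replicate 2, against 179 CPM at 6.99% in BKM120 replicate 2. In DMSO and with JQ1 the lowest HDAC7 value fell at the smallest share: 167 CPM at 6.56% in DMSO replicate 3 and 144 CPM at 6.61% in JQ1 replicate 1. The part of the mitochondrial share in the result was not tested.

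HDAC1, HDAC2 and HDAC3 are the catalytic subunits of the Sin3, NuRD, CoREST and NCoR corepressor complexes, and none was called in any comparison. HDAC1 averaged 87.4 ± 2.27 CPM in DMSO and 101 ± 7.31 with 18DS (SD, n = 3), where its log2 fold change of 0.20 (95% interval 0.02 to 0.38, edgeR adjusted p = 0.0987) passed the test only under upper-quartile scaling (0.0371). HDAC2 averaged 102 ± 0.840 CPM in DMSO, 103 ± 6.41 with JQ1, 98.5 ± 3.98 with BKM120 and 95.3 ± 6.39 with 18DS, with every interval against DMSO between -0.27 and 0.18. HDAC3 averaged 26.6 ± 1.37, 30.9 ± 3.59, 26.3 ± 2.24 and 29.2 ± 4.75 CPM in the same order. For HDAC4, another class IIa member, the 18DS value just missed the threshold (log2 fold change 0.52, SE 0.20, edgeR adjusted p = 0.0552), and it passed without DMSO replicate 1 (0.76, 0.0193). HDAC5 likewise stood at 0.47 with 18DS (0.0723) and 0.49 with BKM120 (0.101), and passed with 18DS without DMSO replicate 2 (0.63, 0.0408) and with BKM120 without BKM120 replicate 2 (0.63, 0.0397). These 2 genes are named after their values were seen. Uncalled genes of other classes also passed with 18DS in some fits, among them KDM2A, KDM2B and SETD1A lower and KDM3A higher.

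**Figure D3:**
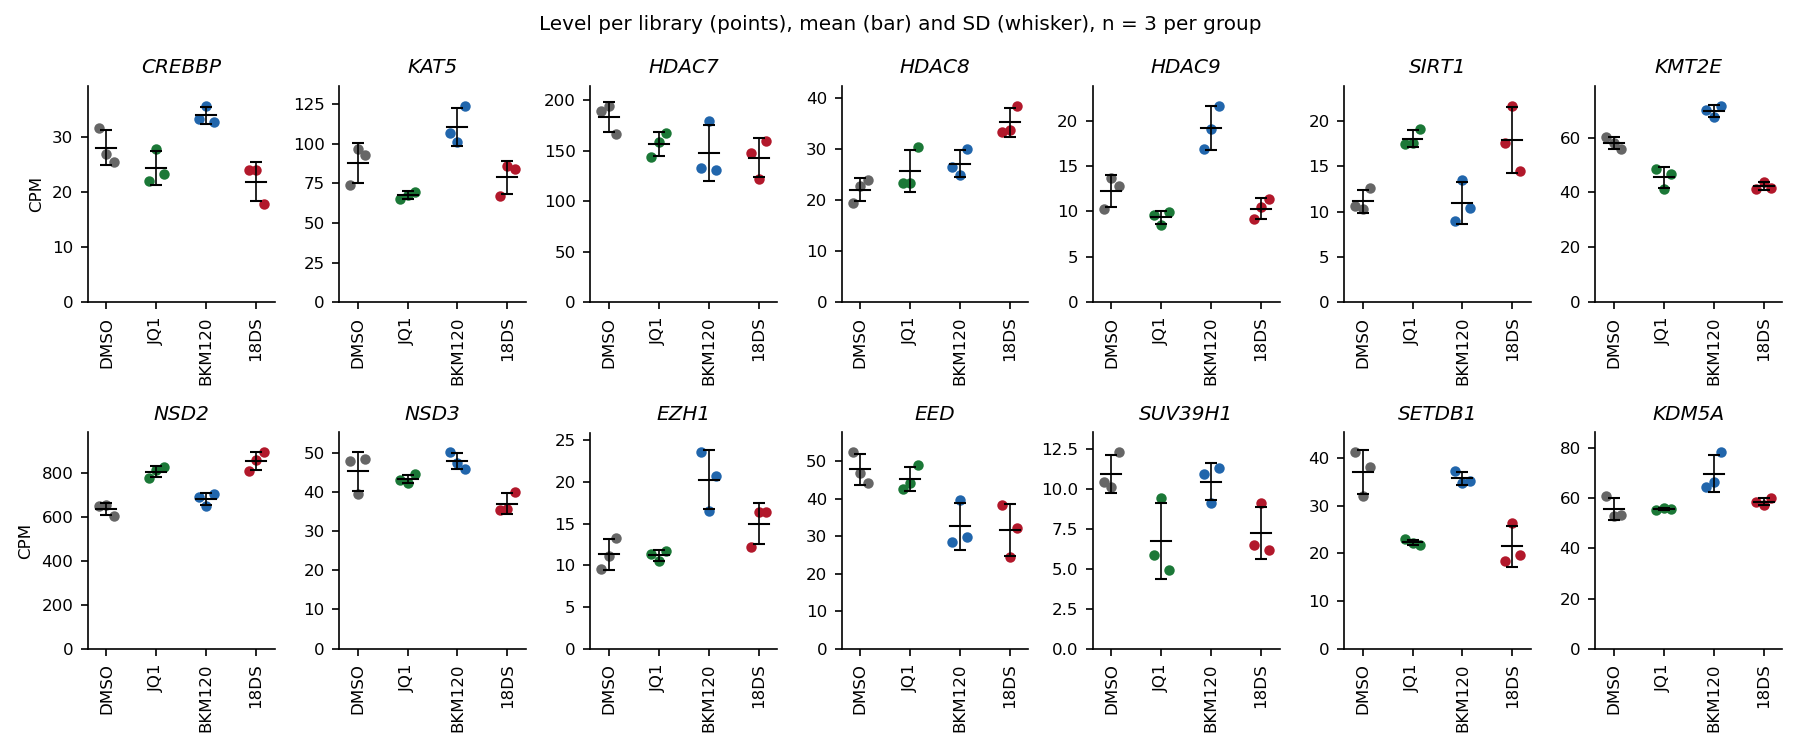
CPM in each library (points), with group means (bars) and SD (whiskers, n = 3), for the 14 genes called in at least 1 comparison, each panel with an axis from 0. The JQ1 and 18DS points of NSD2 and SIRT1 lie above DMSO and those of SETDB1, KMT2E and SUV39H1 below it, while EZH1 and HDAC9 are highest with BKM120.

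Of the 20 methyltransferases, 4 were called with JQ1 (1 higher, 3 lower), 2 with BKM120 (1 higher, 1 lower) and 6 with 18DS (1 higher, 5 lower), against 6.08%, 8.21% and 21.0% of all genes. Class medians were -0.07, 0.04 and -0.13. NSD2 dimethylates lysine 36 of histone H3 and is the translocated gene of this cell line. Its CPM was 649.7, 655 and 604 in DMSO, 776, 812 and 828 with JQ1, 689, 650.4 and 705 with BKM120 and 808, 859 and 894 with 18DS. The JQ1 and 18DS libraries all lay above the DMSO and BKM120 libraries. NSD2 rose 1.26-fold with JQ1 (log2 fold change 0.34, SE 0.07, edgeR adjusted p = 0.00104) and 1.34-fold with 18DS (log2 fold change 0.42, SE 0.07, edgeR adjusted p = 1.97e-05), and both calls held in every one of 8 other settings and 6 fits without a library. With BKM120 the log2 fold change was 0.10 (95% interval -0.04 to 0.24, edgeR adjusted p = 0.411), and 18DS over JQ1 gave 0.08 (95% interval -0.05 to 0.22, edgeR adjusted p = 0.537). Of its relatives, which set marks at the same residue, none was called higher: NSD1 had log2 fold changes of -0.44, 0.18 and -0.36 with JQ1, BKM120 and 18DS (none called), and SETD2, the trimethylase of that lysine, -0.20, 0.10 and -0.22 (none called). NSD3 fell 1.22-fold with 18DS (log2 fold change -0.29, SE 0.10, edgeR adjusted p = 0.0409), from 47.9, 39.7 and 48.5 CPM to 35.4, 35.7 and 40.1. The highest 18DS value lay above the lowest DMSO value, and the call was lost without DMSO replicate 1 (0.183) or 3 (0.155), without 18DS replicate 1 (0.120) or 2 (0.109), and with 4 of 8 other settings. DDHD2, on the opposite strand, shares 545 exon bases with NSD3. Its log2 fold change with 18DS was -0.0033 (edgeR adjusted p = 0.993), and how reads were divided between them was not tested.

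SETDB1 and SUV39H1 trimethylate lysine 9 of histone H3, the mark of heterochromatin, and both fell with JQ1 and with 18DS. SETDB1 measured 41.3, 32.1 and 38.0 CPM in DMSO, 23.0, 22.1 and 21.8 with JQ1, 37.4, 34.7 and 35.1 with BKM120 and 18.4, 26.4 and 19.7 with 18DS. The 6 libraries with a BET inhibitor lay below the 6 without. SETDB1 was 1.67-fold lower with JQ1 (log2 fold change -0.74, SE 0.13, edgeR adjusted p = 0.000115) and 1.74-fold lower with 18DS (log2 fold change -0.80, SE 0.13, edgeR adjusted p = 1.62e-05), with both calls kept in all 8 other settings and all 6 fits without a library, and the 2 compounds differed by -0.06 (95% interval -0.33 to 0.21, edgeR adjusted p = 0.858). CERS2, on the opposite strand, shares 948 exon bases with SETDB1. Its log2 fold changes were -0.28 with JQ1, -0.18 with BKM120 and -0.38 with 18DS, with standard errors of 0.44 to 0.45 and none called (edgeR adjusted p of 0.819, 0.861 and 0.612), and how reads were divided between them was not tested. SUV39H1 stood at 10.4, 10.1 and 12.3 CPM in DMSO, 5.83, 9.43 and 4.91 with JQ1, 10.9, 9.12 and 11.3 with BKM120 and 6.46, 9.10 and 6.14 with 18DS, so 1 library each of JQ1 and 18DS lay close to vehicle. Its falls were 1.66-fold with JQ1 (log2 fold change -0.73, SE 0.22, edgeR adjusted p = 0.0355) and 1.52-fold with 18DS (log2 fold change -0.61, SE 0.21, edgeR adjusted p = 0.04). These were fragile at this depth. The JQ1 call held in 1 of 6 fits, that without JQ1 replicate 2, with adjusted p of 0.0651 to 0.291 in the other 5, and the 18DS call in 1 of 6, that without 18DS replicate 2, with 0.0576 to 0.157 in the other 5. EHMT1 and EHMT2, which make the lower methylation states of the same residue, were called in no comparison, with log2 fold changes between -0.19 and 0.10 against DMSO.

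PRC2 trimethylates lysine 27 of histone H3. Of its subunits, EED was called lower with BKM120 and 18DS, EZH1 higher with BKM120, and EZH2 and SUZ12 in no comparison. EED, its mark-binding subunit, had 52.4, 46.9 and 44.2 CPM in DMSO, 42.5, 44.2 and 48.9 with JQ1, 28.4, 39.7 and 29.7 with BKM120 and 38.2, 24.3 and 32.1 with 18DS. Every library with BKM120 or 18DS lay below every library with DMSO or JQ1. EED fell 1.46-fold with BKM120 (log2 fold change -0.55, SE 0.14, edgeR adjusted p = 0.0111) and 1.51-fold with 18DS (log2 fold change -0.59, SE 0.14, edgeR adjusted p = 0.00229), and with JQ1 its log2 fold change was -0.08 (95% interval -0.35 to 0.19, edgeR adjusted p = 0.822). The 18DS call held in all 6 fits without a library, including that without 18DS replicate 2 (log2 fold change -0.44, edgeR adjusted p = 0.0109), and the BKM120 call was lost without DMSO replicate 1 (0.0730) or BKM120 replicate 1 (0.0809) or 3 (0.0725). Within these groups EED was highest in the library with the smallest share of mitochondrial reads. It stood at 28.4, 39.7 and 29.7 CPM at 7.41%, 6.99% and 7.65% in BKM120 replicates 1, 2 and 3. In 18DS replicates 1, 2 and 3 it was 38.2, 24.3 and 32.1 CPM at 6.95%, 7.60% and 7.06%. The other groups ran otherwise. In DMSO, EED was 52.4, 46.9 and 44.2 CPM at 6.97%, 6.59% and 6.56%, highest at the largest share. With JQ1 it was 42.5, 44.2 and 48.9 CPM at 6.61%, 7.04% and 6.94%, lowest at the smallest share. The part of the mitochondrial share in the result was not tested.

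EZH1 and EZH2 are the alternative catalytic subunits of PRC2, EZH2 prevailing in dividing cells. EZH1 read 9.54, 11.1 and 13.3 CPM in DMSO, 11.3, 10.5 and 11.7 with JQ1, 23.6, 16.5 and 20.8 with BKM120 and 12.2, 16.5 and 16.4 with 18DS. The BKM120 libraries lay above those of DMSO and JQ1, and 1 of 18DS fell inside the DMSO range. EZH1 rose 1.80-fold with BKM120 (log2 fold change 0.84, SE 0.17, edgeR adjusted p = 0.00102), the largest called change of the set, and the call held in all 8 other settings and all 6 fits without a library. With 18DS its log2 fold change was 0.41 (95% interval 0.06 to 0.76, edgeR adjusted p = 0.0904), which passed only without 18DS replicate 1 (0.55, 0.0263). EZH2 averaged 55.8 ± 5.02 CPM in DMSO, 57.6 ± 1.79 with JQ1, 55.5 ± 2.57 with BKM120 and 59.3 ± 0.150 with 18DS (SD, n = 3), with intervals against DMSO between -0.20 and 0.27. SUZ12, the scaffold subunit, was not called either, with log2 fold changes of -0.06, 0.07 and -0.06.

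Of the KMT2 and SETD1 genes, KMT2E alone was called. KMT2E (MLL5), placed with these genes by its name, is a SET-domain protein that binds the methylated lysine 4 mark. No methylation of histones by it is assumed here. Its CPM was 60.3, 58.0 and 56.0 in DMSO, 48.7, 41.3 and 46.6 with JQ1, 70.0, 67.6 and 71.6 with BKM120 and 41.3, 43.9 and 41.7 with 18DS. The JQ1 and 18DS libraries lay below vehicle and the BKM120 libraries above it, with no overlap. KMT2E fell 1.27-fold with JQ1 (log2 fold change -0.35, SE 0.09, edgeR adjusted p = 0.016) and 1.37-fold with 18DS (log2 fold change -0.46, SE 0.09, edgeR adjusted p = 0.00044), while BKM120 gave 0.26 (95% interval 0.08 to 0.44, edgeR adjusted p = 0.064). The 18DS call held in all 14 refits, and the JQ1 call was lost without DMSO replicate 1 (0.0767) or 2 (0.0570) or JQ1 replicate 2 (0.134) or 3 (0.0534). KMT2A (MLL1), rearranged in acute leukaemias, averaged 51.4 ± 6.65, 48.6 ± 2.81, 50.1 ± 2.13 and 47.8 ± 4.51 CPM in DMSO, JQ1, BKM120 and 18DS, and DOT1L, which methylates lysine 79 of histone H3, 30.4 ± 2.59, 28.2 ± 1.88, 29.1 ± 5.79 and 31.6 ± 4.82 CPM (SD, n = 3). Their intervals against DMSO lay between -0.32 and 0.17 for KMT2A and between -0.38 and 0.32 for DOT1L. On opposite strands, KMT2E shares 98 exon bases with SRPK2, and DOT1L shares 529 with PLEKHJ1. SRPK2 held 7168 reads in all against 4087 for KMT2E, and PLEKHJ1 4886 against 2246 for DOT1L. How reads were divided within these pairs was not tested. KMT2B values are uncertain, since another identifier without a symbol held counts within 5% of its own in every library.

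Of the 10 demethylases tested, edgeR called 0 with JQ1, 1 with BKM120 and 0 with 18DS, DESeq2's Wald test called 0, 1 and 0, and 1, 3 and 4 had an unadjusted p under 0.05. Over all genes edgeR called 6.08%, 8.21% and 21.0%, and DESeq2 called 621, 933 and 2239 genes. The share of all genes with an unadjusted p under 0.05 was not computed, so those counts are not read as a trait of the class. Class medians were 0.02, 0.02 and -0.0041. KDM5A, which erases methylation at lysine 4 of histone H3, had 60.9, 53.1 and 53.5 CPM in DMSO, 55.2, 56.0 and 55.8 with JQ1, 64.5, 66.7 and 78.5 with BKM120 and 58.6, 57.2 and 60.3 with 18DS. The BKM120 libraries lay above all others. KDM5A rose 1.25-fold with BKM120 (log2 fold change 0.32, SE 0.09, edgeR adjusted p = 0.0276), and the call was lost without DMSO replicate 2 (0.112) or 3 (0.105) or BKM120 replicate 3 (0.226). CCDC77, on the opposite strand, shares 182 exon bases with KDM5A and had a log2 fold change of 0.44 with BKM120 (edgeR adjusted p = 0.0658), and how reads were divided between them was not tested. KDM1A (LSD1), the flavin-dependent demethylase of the CoREST complex, averaged 20.2 ± 2.08, 20.7 ± 2.83, 22.0 ± 1.04 and 20.2 ± 3.04 CPM in DMSO, JQ1, BKM120 and 18DS, with intervals against DMSO between -0.28 and 0.41.

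KDM6B (JMJD3), which erases the PRC2 mark and is an inducible gene, had the largest fitted decrease of the set without passing the test. Its CPM was 2.94, 2.73 and 2.82 in DMSO, 2.06, 3.26 and 2.19 with JQ1, 1.12, 1.47 and 2.15 with BKM120 and 2.25, 0.875 and 0.945 with 18DS. All BKM120 and 18DS libraries lay below vehicle, but counts were low. The log2 fold change was -1.01 (95% interval -1.84 to -0.18, edgeR adjusted p = 0.0734) with 18DS and -0.85 (95% interval -1.67 to -0.03, edgeR adjusted p = 0.196) with BKM120, and the first passed without 18DS replicate 1 (-1.61, 0.0163). KDM5B, under the filter, had raw counts of 1, 3 and 4 in DMSO, 1, 3 and 3 with JQ1, 5, 1 and 4 with BKM120 and 4, 0 and 2 with 18DS, too few for a comparison.

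JQ1 and 18DS were given at the same dose and time, which allows a direct contrast of the BET inhibitor with the chimeric molecule. Of the 49 genes 2 were called (1 higher, 1 lower with 18DS), against 4.17% of all tested genes (2.37% higher and 1.79% lower). By library totals all genes gave 208 higher and 414 lower in place of 313 and 236, and the set 0 and 1. HDAC8 was 1.36-fold higher with 18DS than with JQ1, at 0.44 (95% interval 0.19 to 0.70, edgeR adjusted p = 0.0369), and EED 1.43-fold lower, at -0.51 (95% interval -0.79 to -0.23, edgeR adjusted p = 0.0313). Neither held in all fits that left out a library. HDAC8 was lost without JQ1 replicate 1 (0.133) or 2 (0.170) or 18DS replicate 2 (0.0506) or 3 (0.157), and EED without JQ1 replicate 1 (0.0613), 2 (0.0967) or 3 (0.165) or 18DS replicate 2 (0.140) or 3 (0.101). HDAC8 was also lost under library totals. Over all 49 genes, 0 to 3 were called with a library left out: 0 without JQ1 replicate 1 or 2 or 18DS replicate 2 or 3, 1 without JQ1 replicate 3 and 3 without 18DS replicate 1. The calls over all tested genes moved too, from 549 with all libraries. They were 317, 123 and 105 without JQ1 replicate 1, 2 and 3, and 1027, 215 and 159 without 18DS replicate 1, 2 and 3. For 40 of 49 genes the 95% interval of the difference lay within 1.5-fold in both directions, and for 7087 of all 13180 genes. The median standard error was 0.136 in the set and 0.169 over all genes. The median difference was -0.02. By class it was -0.15 for acetyltransferases (2 of 9 above 0), 0.13 for deacetylases (6 of 10 above 0), -0.01 for methyltransferases (9 of 20) and -0.02 for demethylases (4 of 10). Over all genes the median was -0.012, with 6330 of 13180 above 0. Differences between classes were not tested. BKM120, at 1 µM, and 18DS, at 250 nM, differ in dose, so their values stand side by side above with no contrast.

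**Figure D4:**
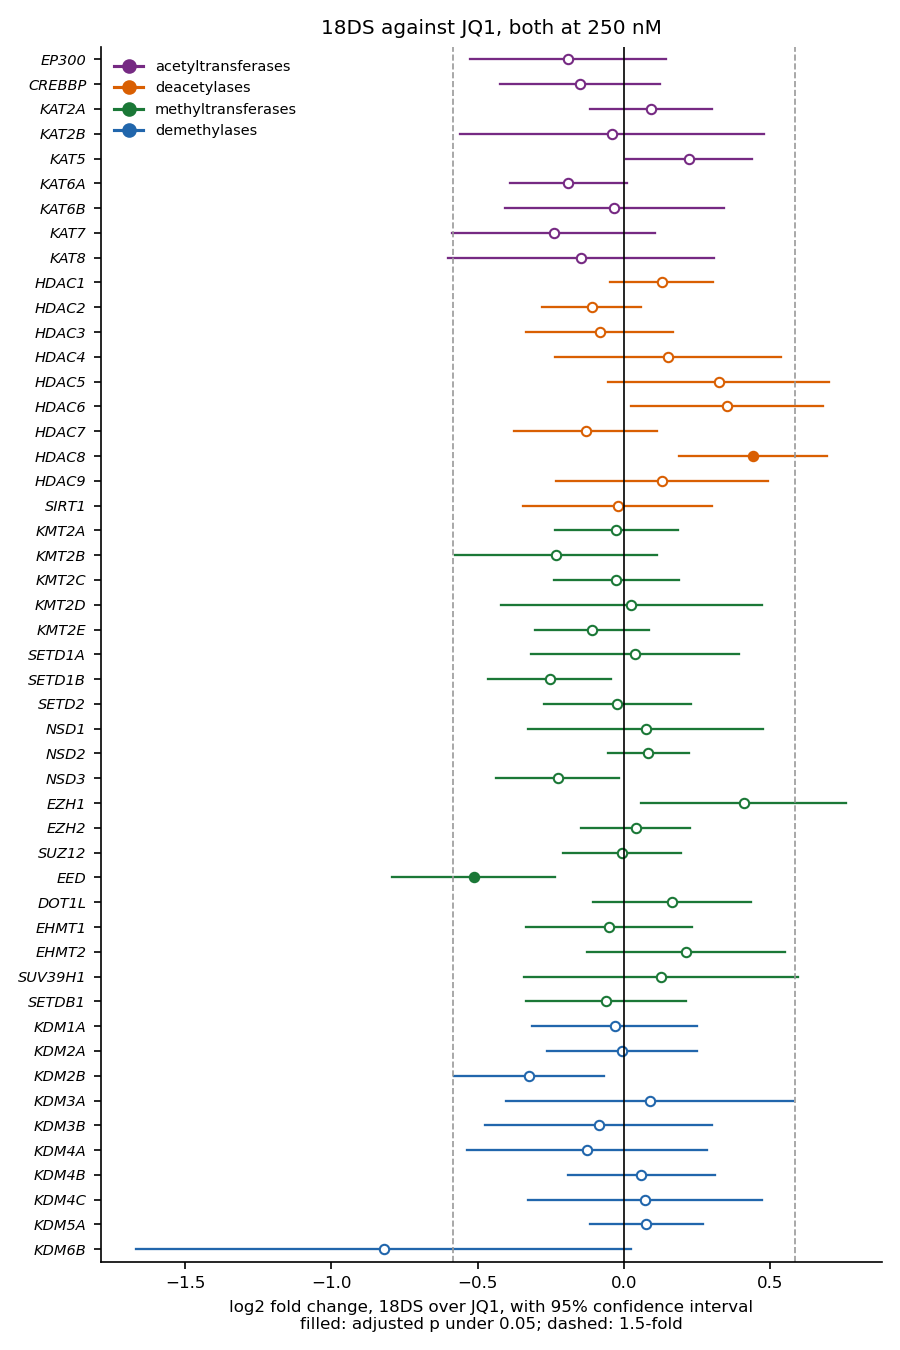
Log2 fold change of 18DS over JQ1 with 95% confidence intervals for the 49 tested genes by class, where dashed lines mark 1.5-fold and filled points an adjusted p under 0.05. HDAC8 (0.44) and EED (-0.51) are filled, and 40 intervals lie between the dashed lines.

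Enzymes work in complexes, and the partners and further enzymes of the same pathways were described from lists of their own. Acetyltransferase complex partners, the reader and scaffold subunits of the SAGA, ATAC, NuA4, MOZ, HBO1, MSL and NSL complexes together with the ING readers, had 15 of 41 lower and 3 higher with 18DS, against 11.0% and 9.95% of all genes, with a list median of -0.18. Without 18DS replicate 2 the counts were 14 lower and 3 higher, against 1127 lower and 957 higher of all genes. MSL1, the MSL scaffold of KAT8, fell by 0.93 on the log2 scale with 18DS (SE 0.10, edgeR adjusted p = 3.96e-09), JADE1, an HBO1 complex subunit, by 0.75 (1.10e-07) and ING2 by 0.94 (2.62e-06). ING2, a reader of the lysine 4 mark, and ING1 belong to the Sin3 deacetylase complex and not to an acetyltransferase complex, though the list and its counts hold them. With JQ1 the same list gave 3 lower and 1 higher (3.45% and 2.63% of all genes), with JADE1 at -0.66 (SE 0.09, edgeR adjusted p = 2.92e-06) and MSL1 at -0.54 (SE 0.09, edgeR adjusted p = 0.000135) and PHF20, of the NSL complex, higher at 0.59 (SE 0.12, edgeR adjusted p = 0.00129). BKM120 gave 3 lower and 2 higher (4.14% and 4.07% of all genes), among them ING2 at -0.83 (SE 0.13, edgeR adjusted p = 6.26e-05), MSL1 at -0.45 (SE 0.09, edgeR adjusted p = 0.00166) and ATXN7, of the SAGA complex, higher at 0.63 (SE 0.12, edgeR adjusted p = 0.000786). Against JQ1, 18DS gave 4 of 41 lower and 0 higher (1.79% and 2.37% of all genes), with BRPF1 at -0.77 (SE 0.14, edgeR adjusted p = 0.00135), TADA1 at -0.85 (SE 0.19, edgeR adjusted p = 0.00972) and ING2 at -0.60 (SE 0.14, edgeR adjusted p = 0.011). Without 18DS replicate 2 TADA1 (0.0557), ING2 (0.0518) and MSL1 (0.0830) were lost. The count was then 2, BRPF1 and a gene not called with all libraries, against 85 lower and 130 higher of all genes in that fit. These counts are a description, and no test of the list was made.

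**Figure D5:**
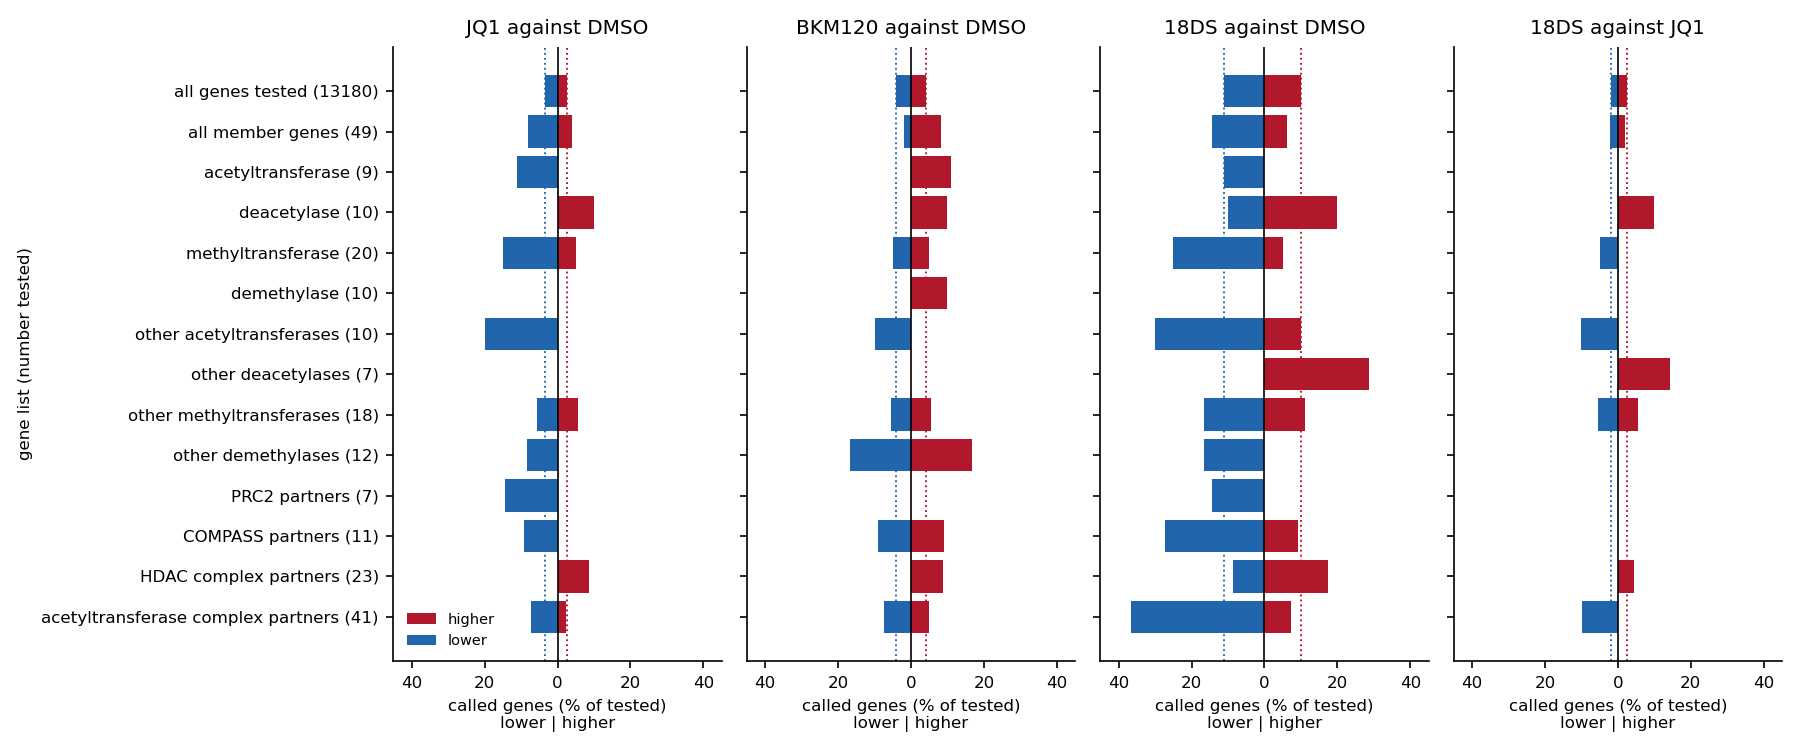
Bars give the percentage of each list's tested genes called higher (right) or lower (left) in the 4 comparisons, and dotted lines the percentages over all 13180 genes. With 18DS, acetyltransferase complex partners reach 36.6% lower, against 11.0% for all genes.

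Other acetyltransferases had 3 of 10 lower and 1 higher with 18DS, against 11.0% and 9.95% of all genes, with GTF3C4, a subunit of the RNA polymerase III factor TFIIIC, at -0.91 (SE 0.13, edgeR adjusted p = 4.11e-06), ESCO1, the cohesin acetyltransferase, at -0.88 (SE 0.20, edgeR adjusted p = 0.00159) and KAT14 at -0.66 (SE 0.16, edgeR adjusted p = 0.00216). With JQ1 2 were lower (3.45% of all genes), GTF3C4 at -0.42 (SE 0.13, edgeR adjusted p = 0.0406) and ESCO1 at -0.64 (SE 0.20, edgeR adjusted p = 0.0415), and GTF3C4 was also lower with BKM120 at -0.44 (SE 0.13, edgeR adjusted p = 0.0286) and with 18DS against JQ1 at -0.49 (SE 0.14, edgeR adjusted p = 0.0369), a call lost without 18DS replicate 2 (0.135). Other deacetylases gave 2 of 7 higher with 18DS, against 9.95% of all genes: SIRT2 at 0.77 (SE 0.17, edgeR adjusted p = 0.000971) and HDAC10 at 0.81 (SE 0.26, edgeR adjusted p = 0.0239), and SIRT2 was higher than with JQ1 as well at 0.57 (SE 0.16, edgeR adjusted p = 0.0412). Without 18DS replicate 2, HDAC10 (0.0952) and the difference in SIRT2 (0.213) were lost. SIRT2 is a mostly cytoplasmic deacetylase that acts on tubulin. Of the 7, edgeR and DESeq2 called 0 with JQ1 and 0 with BKM120, where 0 and 1 had an unadjusted p under 0.05. Over all genes edgeR called 6.08% and 8.21%, and DESeq2 called 621 and 933 genes. The all-gene share at an unadjusted p was not computed.

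HDAC complex partners had 4 of 23 higher and 2 lower with 18DS, against 9.95% and 11.0% of all genes. Without 18DS replicate 2 they had 2 higher and 1 lower, against 957 higher and 1127 lower of all genes. Among the partners, with all libraries, MBD3, a NuRD subunit, was higher at 0.61 (SE 0.13, edgeR adjusted p = 0.000585) and TBL1XR1 lower at -0.28 (SE 0.09, edgeR adjusted p = 0.0263). Both lower calls, TBL1XR1 included, were lost without 18DS replicate 2, and the 1 lower call there is of a gene not called with all libraries. BKM120 gave 2 higher (4.07% of all genes), MBD3 among them at 0.40 (SE 0.13, edgeR adjusted p = 0.0481), and JQ1 2 higher (2.63% of all genes), GPS2 at 0.46 (SE 0.13, edgeR adjusted p = 0.0197) and RCOR1 (CoREST) at 0.42 (SE 0.13, edgeR adjusted p = 0.0397). MBD3 was also higher with 18DS than with JQ1, at 0.47 (SE 0.12, edgeR adjusted p = 0.0274), which was lost without 18DS replicate 2 (0.202). PRC2 partners had 1 of 7 called with JQ1 and 1 with 18DS, against 6.08% and 21.0% of all genes: the accessory subunit AEBP2, lower at -0.85 (SE 0.23, edgeR adjusted p = 0.0155) and -1.06 (SE 0.23, edgeR adjusted p = 0.000924). With BKM120 edgeR and DESeq2 called 0, and 1 had an unadjusted p under 0.05. Over all genes edgeR called 8.21% with BKM120 and DESeq2 933 genes, and the share at an unadjusted p was not computed.

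COMPASS partners, which assemble the KMT2 and SETD1 enzymes, had 3 of 11 lower and 1 higher with 18DS, against 11.0% and 9.95% of all genes, with PAXIP1 (PTIP) at -0.99 (SE 0.16, edgeR adjusted p = 1.42e-05), NCOA6 at -0.60 (SE 0.12, edgeR adjusted p = 0.000434) and MEN1 (menin) higher at 0.32 (SE 0.11, edgeR adjusted p = 0.0376). Without 18DS replicate 2 the counts were 2 and 0, with MEN1 lost (0.272), against 1127 lower and 957 higher of all genes. With BKM120 MEN1 was higher at 0.41 (SE 0.11, edgeR adjusted p = 0.0183) and PAXIP1 lower at -0.49 (SE 0.15, edgeR adjusted p = 0.0353), and with JQ1 HCFC1 was lower at -0.24 (SE 0.07, edgeR adjusted p = 0.0424). Other methyltransferases had 2 of 18 higher and 3 lower with 18DS, against 9.95% and 11.0% of all genes: PRDM2 (RIZ1) higher at 1.04 (SE 0.14, edgeR adjusted p = 9.89e-07), KMT5B, which dimethylates lysine 20 of histone H4, lower at -0.96 (SE 0.11, edgeR adjusted p = 4.64e-08), and PRMT6, an arginine methyltransferase, lower at -1.58 (SE 0.38, edgeR adjusted p = 0.00241). With JQ1 PRDM2 stood at 0.64 (SE 0.15, edgeR adjusted p = 0.00426) and KMT5B at -0.44 (SE 0.11, edgeR adjusted p = 0.00719). KMT5B was lower with 18DS than with JQ1, at -0.52 (SE 0.11, edgeR adjusted p = 0.00891), and PRMT1, the main asymmetric arginine methyltransferase, higher at 0.39 (SE 0.08, edgeR adjusted p = 0.00807). BKM120 gave SETDB2 higher at 0.97 (SE 0.24, edgeR adjusted p = 0.00841) and SETD7 lower at -0.60 (SE 0.17, edgeR adjusted p = 0.0481).

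Other demethylases and related hydroxylases had 4 of 12 called with BKM120 (2 higher, 2 lower), 1 with JQ1 (lower) and 2 with 18DS (lower), against 8.21%, 6.08% and 21.0% of all genes. JMJD1C (KDM3C) rose with BKM120 by 0.73 (SE 0.14, edgeR adjusted p = 0.000842) and KDM8 by 1.05 (SE 0.27, edgeR adjusted p = 0.0117), while RIOX1, a ribosomal oxygenase, was lower at -0.42 (SE 0.10, edgeR adjusted p = 0.00624). JMJD6, a lysyl hydroxylase, was lower with JQ1 at -0.56 (SE 0.14, edgeR adjusted p = 0.0109) and with 18DS at -0.63 (SE 0.14, edgeR adjusted p = 0.00137), and RIOX2 was lower with 18DS at -0.49 (SE 0.14, edgeR adjusted p = 0.0121).

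Each call named for a list was refitted 6 times, with 1 of the libraries compared left out each time. With JQ1 the calls kept in all 6 were JADE1, MSL1 and PHF20, and HCFC1 and ESCO1 were lost in every one. With BKM120 they were ATXN7, ING2, MSL1, JMJD1C and RIOX1. For 18DS against JQ1 the call kept in all 6 was BRPF1. With 18DS against DMSO, MEN1, TBL1XR1, HDAC10 and RIOX2 were lost in at least 1 fit, and the other named calls were kept in all 6.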

How the data were processed

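The authors deposited whole-number read counts for each Ensembl gene in each of the 12 libraries, and these counts, not normalized, are the values used. Per the submitters' processing notes, the tools were HISAT2 2.1.0, cutadapt 1.7, featureCounts, bcl2fastq 2.17.1.14, Subread, FastQC 0.11.5, limma and SAMtools 1.9, and the genome build was hg19. Not given in the sources used here are the annotation, the strand setting and how reads with several matches were treated. Symbols came from a table of gene names, which matched 51662 of 63152 identifiers (the rest held 5.54% of counts). GENCODE v29 served only to see which genes share exon bases and whether the bases after a start open a transcript. Promoter windows came from RefSeq (GRCh38.p14), so no gene coordinates of the counts' build are given.

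The analysis used edgeR 4.0.16, DESeq2 1.42.0 and limma 3.58.1 under R 4.3.3, and matplotlib 3.10.9 for figures. Genes passed filterByExpr (minimum count 10, minimum total 15), and library sizes were scaled by TMM (factors 0.971 to 1.033). One robust quasi-likelihood fit over all 12 libraries (residual degrees of freedom 8, common biological coefficient of variation 0.0862) tested 4 contrasts, with Benjamini-Hochberg adjustment over 13180 genes in each, and a gene was called at an adjusted p under 0.05. All adjusted p-values, bare ones in parentheses included, are edgeR's unless another tool is named. Intervals are 95% confidence intervals of the fit and cover the spread between these libraries. The procedure was tested on simulated data.

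The genes of the set and the pathway lists were chosen with earlier results of these data known. Named genes are those called in any contrast, 13 fixed in addition (NSD2, EZH2, EP300, CREBBP, HDAC1, HDAC2, HDAC3, SIRT1, KMT2A, DOT1L, KDM1A, KDM5B and KDM6B), and of each pathway list at most 3 called genes with the smallest adjusted p. A gene of the pathway lists that this rule names is not reported here. The listed partners PAGR1 and TADA2A matched no identifier. Alternatives were library totals, upper-quartile factors, DESeq2's Wald test, no expression filter, a mean of at least 5 CPM, a fit of the 2 groups compared alone, no robust option, each library left out, and a replicate block.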

Additional observations from a re-analysis of the deposited data

Results flagged for a closer look

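The direct contrast of 18DS with JQ1 at the same dose called 2 of the 49 genes: HDAC8, with a log2 fold change of 0.44, and EED, with -0.51. That is 4.08% of the set, against 4.17% of all tested genes, so the share lay at that of all genes. Both passed edgeR's test of the difference itself, and both lost the call when some single libraries were left out.

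Another 4 genes had every library of one compound below, and every library of another above, the DMSO libraries. The share of all tested genes with such a pattern was not computed, so the count is not read as a trait of the set. KAT5 was lower with JQ1 (log2 fold change -0.38) and higher with BKM120 (0.33), and HDAC9 stood at -0.38 with JQ1 and 0.65 with BKM120. KMT2E stood at -0.35 with JQ1, 0.26 with BKM120 and -0.46 with 18DS, and CREBBP at 0.27 with BKM120 and -0.36 with 18DS. HDAC9 with JQ1, and KMT2E and CREBBP with BKM120, were not called. The compounds differ in dose, and the difference between them was not tested.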

How the results depend on the processing

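Calls kept in all 8 other settings and all 6 fits without a library were NSD2 and SETDB1 with JQ1, EZH1 with BKM120, and EED, HDAC8, KMT2E, NSD2, SETDB1 and SIRT1 with 18DS. No called gene changed direction in any of these. The number of genes of the set called with BKM120 was 3 under library totals (5 by TMM), and that of 18DS against JQ1 was 1 under library totals and 1 with a replicate block (2 by TMM without it). Leaving out each library in turn gave 2 to 4 genes with JQ1, 1 to 7 with BKM120, 8 to 9 with 18DS and 0 to 3 for 18DS against JQ1, and over all genes 504 to 609, 487 to 1413, 1909 to 3026 and 105 to 1027.

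The replicate numbers gave no sign of pairing: deviations of same-numbered libraries correlated at -0.13 to 0.09, 0 of 18 pairs over 0.1, and 4 of 12 libraries correlated best with their own number. With the replicate block 6, 5 and 9 genes of the set were called with JQ1, BKM120 and 18DS. The calls lost under it were HDAC7 with 18DS (0.0509) and EED for 18DS against JQ1 (0.0526).

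Among the calls ended by other settings were KAT5 with JQ1 and CREBBP, NSD3 and SUV39H1 with 18DS under upper-quartile factors, KAT5 and KDM5A with BKM120 under library totals, and SUV39H1 with JQ1 and 18DS, KAT5 with BKM120 and CREBBP and NSD3 with 18DS by DESeq2's Wald test. KDM6B, KAT8 and SUV39H1, among the genes of low counts, had standard errors above 0.2 on the log2 scale against DMSO. The counts are relative, and a change in total mRNA per cell would not show.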
